A study of Mus musculus with 16 samples.

Results

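The extracellular matrix genes described here are 42 genes of the mouse liver transcriptome, out of 53714 genes counted. They were selected by gene symbol: 7 fibrillar collagens, 4 other collagens, 13 basement membrane genes, 10 glycoproteins and proteoglycans, and 8 genes of cross-linking and remodelling. All 42 symbols matched 1 row of the count table each, and 40 had enough reads to be tested. Versican (Vcan) and the metalloproteinase inhibitor Timp1 did not. Vcan had 18 reads over the 4 fasted KO libraries, 15 over the fasted WT, 32 over the fed KO and 36 over the fed WT libraries. Timp1 had 9 reads over fasted KO, 15 over fasted WT, 14 over fed KO and 10 over fed WT libraries.

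Fibrillar collagens assemble into the cable-like fibrils that give tissue its tensile strength, whereas type IV collagen, laminins, nidogens and perlecan form the sheet-like basement membrane under epithelia and around vessels. In liver, most fibrillar collagen is made by hepatic stellate cells and portal fibroblasts, and hepatocytes themselves release fibronectin and collagen XVIII. Lysyl oxidases cross-link collagen and elastin, matrix metalloproteinases (Mmp) cut matrix proteins, and tissue inhibitors (Timp) block these enzymes. The title of the series links the Slc25a47 locus, which encodes a mitochondrial carrier protein, to liver fibrosis, the state in which such matrix accumulates.

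Polyadenylated RNA was sequenced from livers of male mice aged 9 weeks, in 4 groups of 4 libraries. These were fasted Slc25a47hep-/- (fasted KO), fasted Slc25a47hep+/+ (fasted WT), fed Slc25a47hep-/- (fed KO) and fed Slc25a47hep+/+ (fed WT) mice. The strain given for all 16 is C57BL/6 Slc25a47tm1c(EUCOMM)Hmgu, so the controls are listed with the conditional allele too; the driver of the recombination is not given in the sources used here. Fasted mice had food withheld overnight and fed mice had chow. The labels do not say that each library came from a separate animal, so p-values measure the spread between these libraries.

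The libraries held 22.5 to 24.1 M gene reads in fasted KO, 19.8 to 24.8 M in fasted WT, 19.6 to 24.1 M in fed KO and 20.6 to 27.4 M in fed WT. Slc25a47 itself stood at 164 to 331 CPM (counts per M reads, TMM-scaled) in fasted KO against 855 to 1139 CPM in fasted WT, and at 81.8 to 153 CPM in fed KO against 461 to 836 CPM in fed WT, so no KO library reached a WT library of the same feeding state. The deleted part of the gene is not given in the sources used here. Hepatocyte markers summed to 100500 to 148900 CPM over the 16 libraries, none of them at 0. The share of alignments that were not unique was 32.2 to 34.8% in fasted KO and 40.4 to 45.7% in fasted WT, and 32 to 39.3% in fed KO and 41.5 to 45.8% in fed WT. It thus moved with genotype, and its part in the genotype results was not tested. Scaling factors moved with genotype as well, at 1 to 1.07 in fasted KO, 0.903 to 0.938 in fasted WT, 1.05 to 1.14 in fed KO and 0.915 to 0.966 in fed WT. With library totals alone in their place, the median log2 fold change of all genes tested shifts to 0.21 in the fed and 0.20 in the fasted genotype comparison. Fasted WT replicates 2 and 4 stood apart by transcripts of the exocrine pancreas, whose 15 counted markers summed to 1886 and 522 CPM there, against 5.10 to 81.2 CPM in the other 14 libraries. The totals of members called against or within the fasted WT group are given with and without this pair; counts by class, of the further lists and of markers are given with it.

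Per length of transcript, the members spanned several orders of magnitude. In fed WT livers fibronectin (Fn1) was highest at 258 ± 3.32 CPM per kb (SD, n = 4), followed by Col18a1 at 181 ± 18.1 and the small proteoglycan decorin (Dcn) at 98 ± 6.37 CPM per kb. The next in order were biglycan (Bgn) at 40.2 ± 3.77, Sparc at 28.4 ± 2.89 and Col14a1 at 10.2 ± 1.07 CPM per kb. These 6 means differed from their neighbours in the order by more than their SDs. Among fibrillar collagens Col5a3 was highest in fed WT at 7.66 ± 1 CPM per kb, above Col3a1 at 5.66 ± 0.967 and Col27a1 at 4.76 ± 1.33, whose spreads overlapped, and Col1a1 lowest at 0.515 ± 0.107. In fed KO livers that order differed, with Col3a1 at 9.01 ± 2.06, Col5a3 at 4 ± 0.242, Col1a2 at 3.52 ± 0.685, Col27a1 at 1.49 ± 0.368 and Col1a1 at 1.15 ± 0.231 CPM per kb. At the low end, Lox was at 0.108 ± 0.0419, Timp1 at 0.132 ± 0.0534 and Vcan at 0.0327 ± 0.0158 CPM per kb in fed WT, and Lox and Timp1 did not differ there beyond their spread. Among chains of 1 collagen type, the per-length ratio of Col1a1 to Col1a2 was 0.15 to 0.257 in fasted KO and 0.183 to 0.26 in fasted WT, and 0.307 to 0.346 in fed KO and 0.186 to 0.265 in fed WT livers, with no overlap between the fed genotypes. The per-length ratio of Col6a3 to Col6a1 was 0.212 to 0.263 in fasted KO and 0.187 to 0.261 in fasted WT, and 0.294 to 0.409 in fed KO and 0.306 to 0.391 in fed WT livers. Such ratios depend on which transcript length is used: with merged exons the mean of Col1a1 to Col1a2 over the 16 libraries is 0.513 in place of 0.244.

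**Figure D1:**
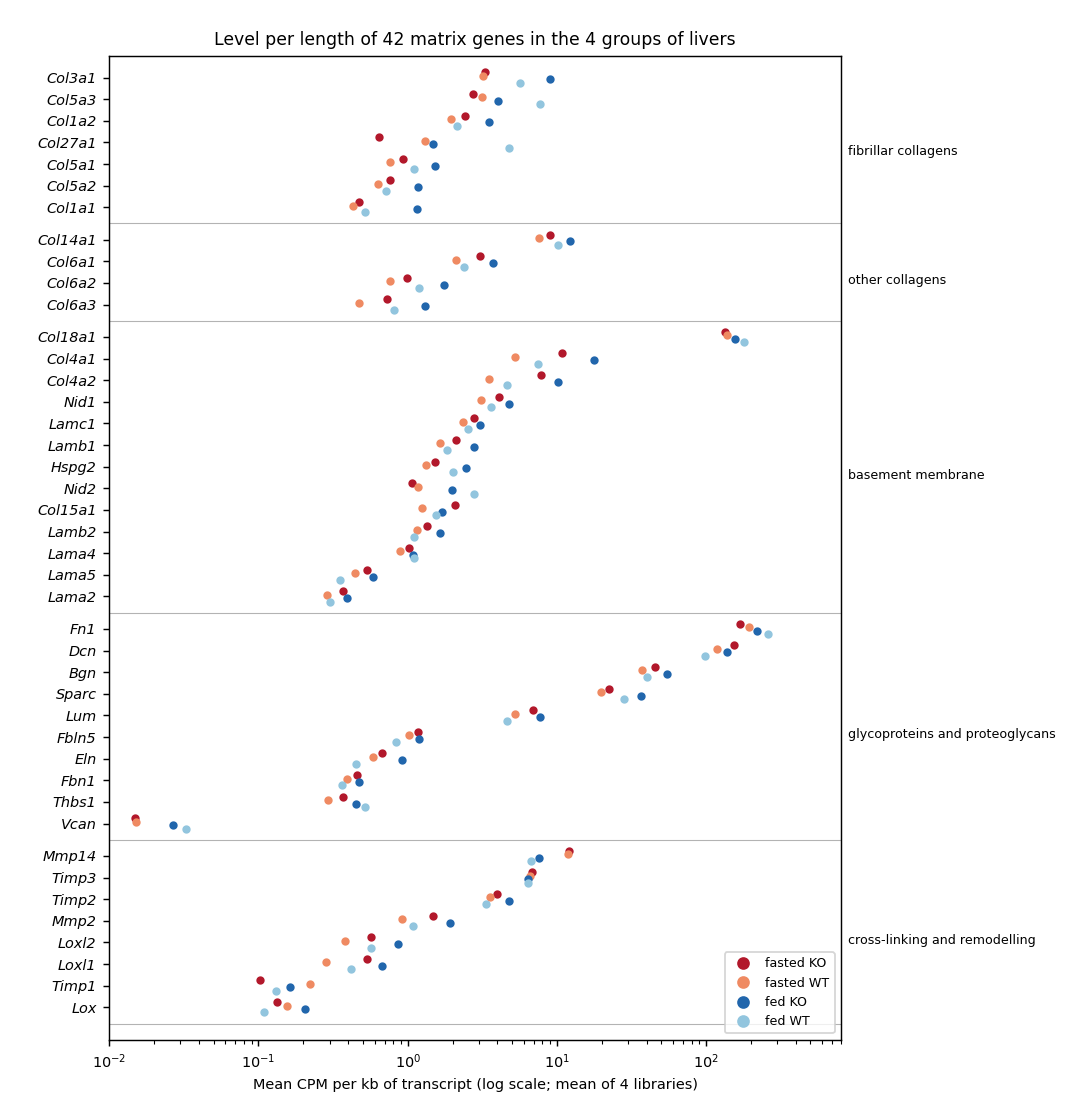
Mean level per kb of transcript of the 42 matrix genes (log axis), by role class; each point is the mean of the 4 libraries of a group. Fn1, Col18a1 and Dcn lie near or above 98 CPM per kb in all 4 groups, and Vcan lies below 0.033 CPM per kb.

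Together the 42 genes took 0.305 to 0.334% of gene reads in fasted KO and 0.273 to 0.303% in fasted WT livers, and 0.391 to 0.476% in fed KO and 0.351 to 0.403% in fed WT livers. Fn1 and Col18a1 alone held 68.1 to 70.5% of these reads in fasted KO and 75.4 to 77.3% in fasted WT, and 67.4 to 71.6% in fed KO and 76.8 to 79.2% in fed WT. Summed levels are therefore given without this pair. The remaining 40 genes summed to 919 to 1013 CPM in fasted KO against 709.8 to 799.8 CPM in fasted WT, and to 1102 to 1216 CPM in fed KO against 805 to 933 CPM in fed WT. In both feeding states every KO library lay above every WT library.

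The fed genotype comparison asked which matrix transcripts differ between livers with and without Slc25a47 while the mice eat. In fed KO livers 25 of the 40 tested members were higher than in fed WT, 4 were lower and 11 did not pass the test. Of all 13905 genes tested, 14% were called higher and 16.9% lower (edgeR quasi-likelihood test, Benjamini-Hochberg adjusted p under 0.05), 30.9% in all. The median log2 fold change of the members was 0.50, and that of all genes tested -0.01. By class, 4 of 7 fibrillar collagens were higher and 2 lower (median 0.67), 4 of 4 other collagens were higher (0.62), 7 of 13 basement membrane genes were higher and 1 lower (0.39), 6 of 9 glycoproteins and proteoglycans were higher and 1 lower (0.44), and 4 of 7 cross-linking and remodelling genes were higher with none lower (0.60). For 26 members all KO libraries exceeded all WT libraries, and for 4 they all lay below, against 12.9% and 15.4% of all genes tested. Scaling by library totals alone calls 32 members higher and 2 lower, and 4886 genes higher and 915 lower of all tested, with a member median of 0.72 beside the shift of 0.21. Stellate cell markers moved in the same direction, to 424 to 460.5 CPM in fed KO against 299 to 353 CPM in fed WT, and their part in these counts was not tested. In bulk tissue, fewer cells of a type and less RNA per cell cannot be told apart. Here and below, ± after a log2 fold change is its SE and ± after a CPM mean is the SD.

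The fibrillar class split in fed KO livers. Col1a1 (ENSMUSG00000001506; GRCm38 chromosome 11, 94936224 to 94953042, forward strand), the alpha 1 chain of type I collagen, had 5.41 to 8.69 CPM in fed KO against 2.37 to 3.86 CPM in fed WT livers, a log2 fold change of 1.16 ± 0.24 (edgeR adjusted p = 0.00164), or 2.24-fold. Its partner chain Col1a2 had 24.2, 17.8, 15.9 and 17.5 CPM in fed KO against 13.1, 9.76, 11.4 and 11.1 CPM in fed WT, so all 4 KO libraries were above the highest WT library. The log2 fold change of Col1a2 was 0.73 ± 0.15 (edgeR adjusted p = 0.0013). Chains of type V collagen, which co-assembles with type I, went both ways: Col5a1 was higher by 0.47 ± 0.11 (edgeR adjusted p = 0.00378) and Col5a2 by 0.70 ± 0.16 (edgeR adjusted p = 0.00293), while Col5a3 was lower.

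Col5a3 (ENSMUSG00000004098; GRCm38 chromosome 9, 20770050 to 20815067, reverse strand) had 25.2, 26.1, 23.9 and 22.8 CPM in fed KO livers, against 46.5, 38.4, 51.9 and 50.8 CPM in fed WT livers. The lowest WT library was well above the highest KO library, and the log2 fold change was -0.93 ± 0.11 (edgeR adjusted p = 4.18e-06). Col27a1 (ENSMUSG00000045672; GRCm38 chromosome 4, 63214004 to 63334991, forward strand), a fibrillar collagen best known from cartilage, had 13, 14.4, 9.1 and 8.78 CPM in fed KO against 28.3, 27, 42.3 and 47.3 CPM in fed WT. That was the largest fall among the members, -1.67 ± 0.22 (edgeR adjusted p = 4.06e-05). The summed level of the 7 fibrillar collagens overlapped between genotypes, at 114 to 160.4 CPM in fed KO and 116 to 155 CPM in fed WT. Col3a1, the type III chain, did not pass the test although its groups did not overlap, with 40.1 to 66.3 CPM in fed KO and 24.9 to 37.7 CPM in fed WT (log2 fold change 0.67 ± 0.29, edgeR adjusted p = 0.0962).

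All 4 non-fibrillar interstitial collagens were higher in fed KO livers. Type VI collagen forms beaded filaments around cells from 3 chains. Col6a3 had 14.8, 12.1, 13.2 and 12.9 CPM in fed KO against 9.23, 8.31, 7.6 and 7.8 CPM in fed WT (log2 fold change 0.69 ± 0.10, edgeR adjusted p = 6.38e-05). Col6a1 had 16.6, 16.7, 13.1 and 15.2 CPM in fed KO against 10.6, 8.63, 9.41 and 10.3 CPM in fed WT (log2 fold change 0.66 ± 0.12, edgeR adjusted p = 0.000404), and Col6a2 had 9.83, 9.12, 6.6 and 7.08 CPM in fed KO against 6.29, 5, 4.96 and 5.79 CPM in fed WT (log2 fold change 0.57 ± 0.16, edgeR adjusted p = 0.0119). Each of the 3 chains separated the genotypes without overlap. Col14a1, which sits on the surface of collagen fibrils, rose by less, by 0.27 ± 0.08 (edgeR adjusted p = 0.0219), and its groups overlapped. Leaving out fed KO replicate 1, or any of fed WT replicates 2, 3 and 4, ends that call.

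In the basement membrane class the largest change was in type IV collagen, whose alpha 1 and alpha 2 chains form the common heterotrimer. Their genes lie head to head on GRCm38 chromosome 8, Col4a1 (ENSMUSG00000031502) on the reverse strand from 11198423 to 11312826 and Col4a2 (ENSMUSG00000031503) on the forward strand from 11312805 to 11449287, so that the annotated genes overlap by 22 bp. The RefSeq promoter windows of this pair (GRCm38.p6; 250 bases before to 50 after the start of transcription) are printed because both genes moved together and the windows share 78 bases, 11312777 to 11312854. Windows of Col1a2 and Col5a3 are printed beside them as fibrillar collagens that moved in opposite directions in fed livers. Each is written 5′ to 3′ on the strand of its gene, at chr8:11312777-11313076 (reverse), chr8:11312555-11312854 (forward), chr6:4505368-4505667 (forward) and chr9:20815018-20815317 (reverse). Capitals mark CCAAT and GGGCGG (the GC box) or their reverse complements ATTGG and CCGCCC.
Col4a1: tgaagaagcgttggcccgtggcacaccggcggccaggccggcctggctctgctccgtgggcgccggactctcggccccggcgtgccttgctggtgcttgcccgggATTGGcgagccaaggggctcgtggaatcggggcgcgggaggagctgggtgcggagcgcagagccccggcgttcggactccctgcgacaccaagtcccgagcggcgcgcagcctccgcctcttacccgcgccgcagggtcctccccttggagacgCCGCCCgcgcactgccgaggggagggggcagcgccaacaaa
Col4a2: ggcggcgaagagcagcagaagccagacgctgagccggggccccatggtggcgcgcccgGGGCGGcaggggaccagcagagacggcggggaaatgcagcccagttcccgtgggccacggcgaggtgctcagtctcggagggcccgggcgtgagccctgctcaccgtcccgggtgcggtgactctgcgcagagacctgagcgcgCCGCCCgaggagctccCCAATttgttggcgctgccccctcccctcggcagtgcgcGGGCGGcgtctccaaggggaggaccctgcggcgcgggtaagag
Col1a2: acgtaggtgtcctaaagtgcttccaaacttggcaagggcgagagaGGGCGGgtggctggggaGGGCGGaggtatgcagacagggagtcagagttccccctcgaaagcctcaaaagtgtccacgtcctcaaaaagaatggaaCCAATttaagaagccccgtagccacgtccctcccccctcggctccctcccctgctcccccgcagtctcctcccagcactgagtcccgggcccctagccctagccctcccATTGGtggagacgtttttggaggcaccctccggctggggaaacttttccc
Col5a3: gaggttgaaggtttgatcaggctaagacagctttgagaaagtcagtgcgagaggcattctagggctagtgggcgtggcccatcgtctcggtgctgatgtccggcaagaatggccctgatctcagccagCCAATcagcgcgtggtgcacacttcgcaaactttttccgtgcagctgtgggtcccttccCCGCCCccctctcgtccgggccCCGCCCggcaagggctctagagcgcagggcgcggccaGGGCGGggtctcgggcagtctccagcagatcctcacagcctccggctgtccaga

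Each of the 4 windows holds both motifs in at least 1 orientation. A window was found for 27 of the 42 members, of which 12 hold CCAAT and 21 hold GGGCGG, against 37.4% and 35.7% of all 32851 RefSeq windows of the same length. A member counts if any of its windows matches, while the share of all counts each window, so these are unlike measures. Lox was not searched because its chromosome was left out for members, though not for the share of all windows. The TATA box letters TATAAA are in 1 of the 27 (Col3a1) and in 13.6% of all windows, CAGAC (within the site bound by SMAD proteins) in 15 of the 27 and in 49.6%, and TGANTCA (the AP-1 site) in 1 of the 27 (Col6a1) and in 7.81%. Every motif was searched on both strands, and none contains another. These are matches of letters and were not tested for binding.

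Col4a1 had 135, 99.8, 109 and 129 CPM in fed KO livers, against 54.9, 53.9, 47.5 and 42.9 CPM in fed WT livers. Col4a2 had 72.9, 56.4, 60.2 and 74 CPM in fed KO, against 27.6, 33.4, 29 and 29.5 CPM in fed WT. Every KO library exceeded every WT library for both chains, with log2 fold changes of 1.25 ± 0.11 (edgeR adjusted p = 3.34e-07) and 1.14 ± 0.12 (edgeR adjusted p = 3.54e-06), or 2.37-fold and 2.2-fold. Per length, the ratio of Col4a1 to Col4a2 was 1.7 to 1.81 in fed KO and 1.42 to 1.94 in fed WT, so it overlapped between the genotypes.

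Laminin genes moved less than type IV collagen. Lama5, a laminin alpha chain of mature basement membranes, had 6.65, 6.28, 7.03 and 6.65 CPM in fed KO against 3.91, 4.16, 3.8 and 4.12 CPM in fed WT (log2 fold change 0.73 ± 0.12, edgeR adjusted p = 0.000199), with no overlap. Lamb1 was higher by 0.59 ± 0.11 (edgeR adjusted p = 0.000386), Lamb2 by 0.60 ± 0.13 (edgeR adjusted p = 0.00245) and Lamc1 by 0.26 ± 0.08 (edgeR adjusted p = 0.0161); the Lamc1 call is lost without fed KO replicate 3 or with no filter on low counts. Lama2 (0.39) and Lama4 (-0.02) did not pass the test. The nidogens, which link laminin to type IV collagen, went in opposite directions. Nid1 was higher by 0.40 ± 0.08 (edgeR adjusted p = 0.000948), whereas Nid2 had 8.97, 10.5, 9.02 and 10.2 CPM in fed KO against 12.5, 13.3, 14.6 and 13.5 CPM in fed WT (log2 fold change -0.48 ± 0.13, edgeR adjusted p = 0.0109), with every KO library below every WT library. The last 437 bp of Nid2 overlap Rtraf on the opposite strand, a gene at 67.0 CPM on average, and the strand setting of the counting is not given in the sources used here, so reads of the overlap cannot be told apart. The Nid2 call is lost when libraries are scaled by their totals alone. Perlecan (Hspg2, 0.28), Col15a1 (0.15) and Col18a1 (-0.20) did not pass. The annotated span of Col18a1, introns included, overlaps that of Slc19a1 on the opposite strand by 8825 bp. Slc19a1 is at 6.03 CPM on average, and the overlap of exons or reads was not measured.

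Among glycoproteins and proteoglycans the small leucine-rich proteoglycans, which bind collagen fibrils and set their spacing, were higher in fed KO livers. Dcn had 214, 236, 243 and 278 CPM in fed KO against 188, 161, 169 and 172 CPM in fed WT (log2 fold change 0.49 ± 0.09, edgeR adjusted p = 0.000393). Bgn had 133, 128, 123 and 144 CPM in fed KO against 109, 87.3, 95.9 and 96 CPM in fed WT (log2 fold change 0.44 ± 0.08, edgeR adjusted p = 0.000399), and lumican (Lum) had 16.4, 17.9, 19.5 and 21.9 CPM in fed KO against 11.5, 12.2, 11 and 10.5 CPM in fed WT (log2 fold change 0.74 ± 0.15, edgeR adjusted p = 0.00116). None of the 3 overlapped between genotypes. Elastic fibre genes also rose: elastin (Eln) to 3.51 ± 1.09 CPM in fed KO against 1.73 ± 0.308 CPM in fed WT (SD, n = 4; log2 fold change 1.02 ± 0.22, edgeR adjusted p = 0.00186), and Fbln5, needed for elastic fibre assembly, by 0.52 ± 0.12 (edgeR adjusted p = 0.00376). The microfibril gene Fbn1 (0.38) and the matricellular gene Thbs1 (-0.19) did not pass. Sparc, a collagen-binding matricellular protein, was higher by 0.36 ± 0.10 (edgeR adjusted p = 0.00937).

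Fibronectin ran against the class. Fn1 had 2011, 1905, 1740 and 1666 CPM in fed KO livers, against 2129, 2136, 2188 and 2136 CPM in fed WT livers, and all 4 KO libraries were below the lowest WT library. Its log2 fold change of -0.23 ± 0.07 (edgeR adjusted p = 0.0255) is small, and scaling by library totals alone gives -0.01 and no call. Nor is it called with only the 8 fed libraries in the fit, or when replicate 3 or 4 of fed KO or replicate 3 of fed WT is left out.

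Of the cross-linking and remodelling genes, the lysyl oxidase relatives Loxl1 and Loxl2, the inhibitor Timp2 and the gelatinase Mmp2 were higher in fed KO livers. Timp2 had 17.7, 19.4, 16 and 17.7 CPM in fed KO against 13.9, 11.7, 12.1 and 12.4 CPM in fed WT (log2 fold change 0.50 ± 0.09, edgeR adjusted p = 0.000499). Mmp2 had 6.85, 6.13, 5.14 and 5.58 CPM in fed KO against 4.21, 2.44, 3.34 and 3.29 CPM in fed WT (log2 fold change 0.84 ± 0.17, edgeR adjusted p = 0.000869), and Loxl1 had 2.41, 2.45, 1.69 and 2.33 CPM in fed KO against 1.52, 1.4, 1.25 and 1.32 CPM in fed WT (log2 fold change 0.69 ± 0.17, edgeR adjusted p = 0.00588). These 3 genes separated the genotypes without overlap. Loxl2 was higher by 0.60 ± 0.18 (edgeR adjusted p = 0.016), a call that is lost when replicate 1 of fed KO, or replicate 3 or 4 of fed WT, is left out. Lox, the founding lysyl oxidase, stood at 0.966 ± 0.452 CPM in fed KO and 0.515 ± 0.199 CPM in fed WT (SD, n = 4) and did not pass (log2 fold change 0.91 ± 0.37, edgeR adjusted p = 0.0703). Timp3 (0.01) and Mmp14 (0.18), the membrane-bound activator of Mmp2, did not pass either.

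**Figure D2:**
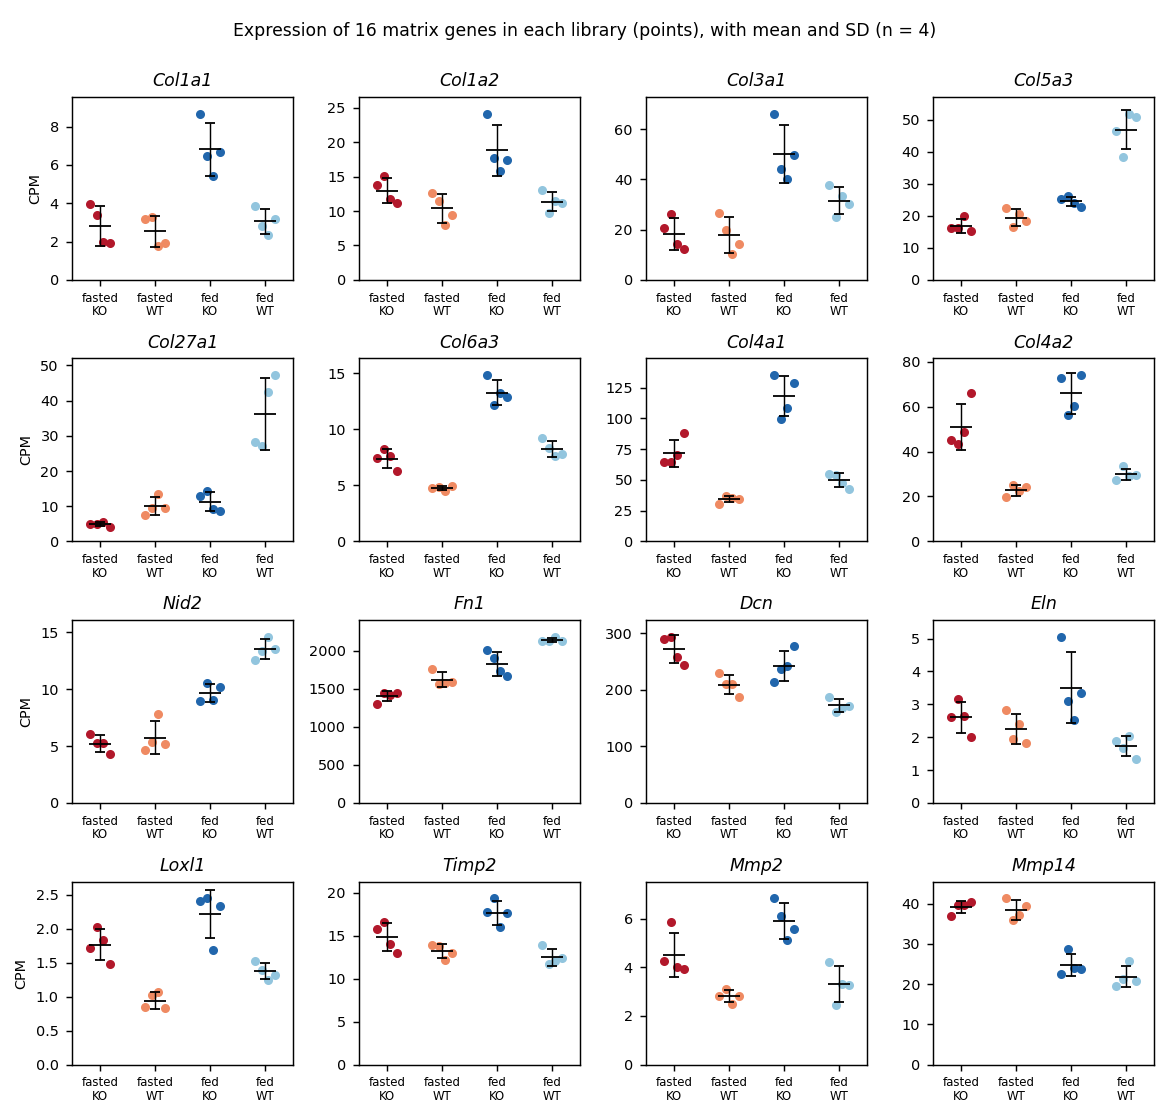
CPM of 16 matrix genes in each library (points), with the mean and SD of the 4 libraries of a group (bars). In fed livers Col4a1 lies between 99.8 and 135 CPM in KO and between 42.9 and 54.9 CPM in WT, while Col27a1 lies between 8.78 and 14.4 CPM in KO and between 27.0 and 47.3 CPM in WT.

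After the overnight fast the same genotype comparison called fewer members. In fasted KO livers 14 of 40 were higher than in fasted WT, 2 were lower and 24 did not pass, beside 13.8% higher and 14.5% lower (28.3% in all) among all 13905 genes tested. The median log2 fold change of the members was 0.25, and that of all genes 0.01. The 14 were Col4a1, Col4a2, Nid1, Lamb1, Col15a1 and Lamc1 of the basement membrane, Col6a1, Col6a3 and Col14a1 of the other collagens, Dcn and Bgn, and Loxl1, Loxl2 and Mmp2. No fibrillar collagen was higher by edgeR or by DESeq2; 2 of 7 had an unadjusted p under 0.05 in that direction. For 13 members all KO libraries were above all WT libraries and for 2 below, against 14.2% and 15.3% of all genes tested. Stellate cell markers summed to 403 to 427 CPM in fasted KO against 308 to 331 CPM in fasted WT, and their part in these counts was not tested. With library totals alone, 28 members are called higher and 1 lower, and 4301 genes higher and 902 lower of all tested. Without fasted WT replicates 2 and 4, 8 of the 14 higher and 1 of the 2 lower calls remained: Bgn, Dcn, Col14a1, Col15a1, Lamb1, Lamc1 and Fn1 were lost. Leaving out single libraries of these groups also ends the calls of Col14a1, Col15a1, Lamb1, Lamc1, Loxl2 and Fn1.

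The type IV collagen chains had the largest rises among the tested members in fasted livers. Col4a1 had 64.4, 64.7, 69.8 and 87.9 CPM in fasted KO livers, against 30.7, 36.7, 35.6 and 34.6 CPM in fasted WT livers (log2 fold change 1.06 ± 0.11, edgeR adjusted p = 3.21e-06). Col4a2 was at 50.8 ± 10.3 CPM in fasted KO and 22.8 ± 2.37 CPM in fasted WT (SD, n = 4; log2 fold change 1.16 ± 0.13, edgeR adjusted p = 4.19e-06). The lowest KO library was above the highest WT library for both chains. Col6a3 had 7.43, 8.26, 7.6 and 6.25 CPM in fasted KO against 4.78, 4.9, 4.51 and 4.96 CPM in fasted WT (log2 fold change 0.63 ± 0.11, edgeR adjusted p = 0.000299), Col6a1 was higher by 0.53 ± 0.12 (edgeR adjusted p = 0.00287), and Nid1 by 0.40 ± 0.08 (edgeR adjusted p = 0.00093). Col15a1, a collagen of the basement membrane zone, was higher by 0.74 ± 0.22 (edgeR adjusted p = 0.0193), at 10.8 ± 1.9 CPM in fasted KO and 6.46 ± 0.734 CPM in fasted WT (SD, n = 4); its fed log2 fold change was 0.15 ± 0.22 (edgeR adjusted p = 0.648). Leaving out fasted KO replicate 4, or fasted WT replicate 3 or 4, ends the fasted Col15a1 call.

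Dcn had 290.5, 294, 258 and 244 CPM in fasted KO livers against 229, 211, 210.4 and 186 CPM in fasted WT livers (log2 fold change 0.38 ± 0.09, edgeR adjusted p = 0.00355). Loxl1 had 1.72, 2.02, 1.84 and 1.48 CPM in fasted KO against 0.849, 1.02, 1.07 and 0.827 CPM in fasted WT (log2 fold change 0.90 ± 0.19, edgeR adjusted p = 0.00155). Neither overlapped between the genotypes. Mmp2 was higher by 0.68 ± 0.17 (edgeR adjusted p = 0.00574) and Loxl2 by 0.57 ± 0.19 (edgeR adjusted p = 0.0338). The Loxl2 call is lost in 6 of 24 alternatives, each leaving out 1 of the 8 fasted libraries. The 24 also hold fits that leave out 1 fed library. Those fits keep all fasted libraries, so they bear on a fasted call only through filter, scaling, shared spread and p adjustment. Col27a1 was the larger of the 2 falls, with 4.95, 4.98, 5.55 and 4.12 CPM in fasted KO against 7.48, 9.58, 13.5 and 9.4 CPM in fasted WT (log2 fold change -1.03 ± 0.23, edgeR adjusted p = 0.00389). Fn1 had 1301, 1452, 1426 and 1445 CPM in fasted KO against 1765, 1560, 1575 and 1586 CPM in fasted WT; its call (log2 fold change -0.21 ± 0.07, edgeR adjusted p = 0.0456) is lost in 19 of the 24 alternatives, over which the log2 fold change lies between -0.25 and -0.02.

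Of the fibrillar collagens that were higher in fed KO livers, Col1a1 was at 2.8 ± 1.03 CPM in fasted KO and 2.54 ± 0.802 CPM in fasted WT (SD, n = 4), with a log2 fold change of 0.15 ± 0.26 (edgeR adjusted p = 0.719). Col1a2 had 0.32 ± 0.15 (edgeR adjusted p = 0.121), Col5a1 0.28 ± 0.12 (edgeR adjusted p = 0.0791) and Col5a2 0.27 ± 0.17 (edgeR adjusted p = 0.242). Col3a1 had 0.05 ± 0.30 (edgeR adjusted p = 0.927), a value that turns negative without fasted KO replicate 1 or 2, or fasted WT replicate 3 or 4. Col1a1 spanned 1.9 to 3.94 CPM in fasted KO and 1.79 to 3.28 CPM in fasted WT livers, so the groups overlapped.

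**Figure D3:**
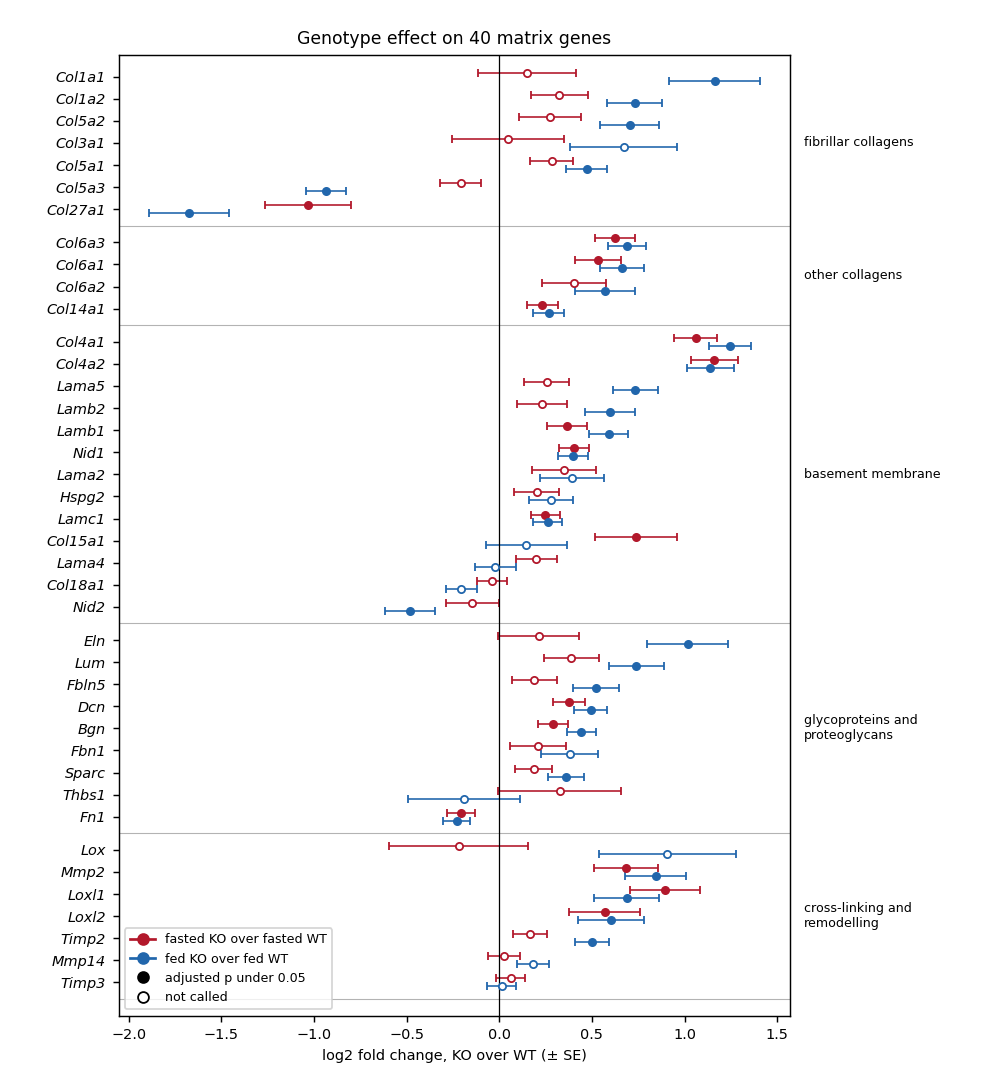
Log2 fold change of KO over WT with its SE for the 40 tested matrix genes, in fasted and in fed livers; filled points passed an adjusted p under 0.05. Type IV collagen genes lie above 1 in both states, and Col27a1 lies at -1.03 in fasted and -1.67 in fed livers.

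Whether the genotype effect differed between feeding states was tested as the fasted effect minus the fed effect. Col5a3 passed, beside 1.07% of all genes tested called in that direction and 0.633% in the other (1.7% in all). Its difference was 0.73 ± 0.15 (edgeR adjusted p = 0.024), so its fall in KO was smaller in fasted than in fed livers. Col5a3 had 16.1, 16.2, 19.9 and 15.1 CPM in fasted KO against 22.3, 16.4, 20.6 and 18.3 CPM in fasted WT livers, groups that overlapped, where the fed groups did not. The call is lost without fasted WT replicates 2 and 4, and when replicate 3 of fasted KO, 2 of fasted WT, or 3 or 4 of fed KO is left out, with differences of 0.58 to 0.81 over 23 alternatives. Scaling by library totals alone keeps the call, beside 88 genes called in that direction and 101 in the other. Without fasted WT replicates 2 and 4, 39 of 14345 genes are called in that direction and 33 in the other. Calls of this difference in the further lists and markers below are given with all libraries only. With all libraries, no member was called with a negative difference by edgeR or DESeq2. In that direction 5 had an unadjusted p under 0.05 by edgeR. Col1a1 (difference -1.01 ± 0.36, edgeR adjusted p = 0.164), Lama5 (-0.48 ± 0.17, edgeR adjusted p = 0.168) and Eln (-0.80 ± 0.31, edgeR adjusted p = 0.199) led these. With the replicate number as a block, Col1a1 is called with a smaller effect in fasted livers (difference -1.03, edgeR adjusted p = 0.0422). For type IV collagen the difference was -0.19 ± 0.16 for Col4a1 and 0.02 ± 0.18 for Col4a2.

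The fasting comparisons asked how matrix transcripts differ after a night without food, within each genotype. The fed libraries of each genotype also enter the fed genotype comparison, so these results share samples with it. In fasted KO livers 23 of 40 members were lower than in fed KO and 1 was higher, beside 20.3% lower and 21.1% higher (41.4% in all) among all genes tested, and the median was -0.38 against -0.004 for all genes. In fasted WT livers 18 were lower than in fed WT and 3 higher, beside 18.3% lower and 16.2% higher (34.5% in all), and the median was -0.25 against -0.02. Without fasted WT replicates 2 and 4, 14 of the 18 lower and 2 of the 3 higher WT calls remained. Scaling by library totals alone calls 25 members lower and 1 higher in KO livers, beside 3601 genes lower and 2216 higher of all tested. By class, all 7 fibrillar collagens fell in KO livers (median -0.71) and 4 of 7 in WT livers (-0.52). All 4 other collagens fell in KO (-0.63) and 3 of 4 in WT livers (-0.53). Of the 13 basement membrane genes 7 fell in KO (-0.22) and 7 in WT livers (-0.31), where 1 rose. Of the 9 glycoproteins and proteoglycans 3 fell in KO (-0.27), and 2 fell and 1 rose in WT livers (0.11). Cross-linking and remodelling genes had 2 falls and 1 rise in each genotype (medians -0.33 in KO and 0.05 in WT).

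Among fibrillar collagens, Col5a3 had the smallest p in WT livers, and the fasted values given above stand against 38.4 to 51.9 CPM in fed WT (log2 fold change -1.27 ± 0.11, edgeR adjusted p = 5.28e-08). In KO livers its log2 fold change was -0.54 ± 0.11 (edgeR adjusted p = 0.000661). Col27a1 had log2 fold changes of -1.21 ± 0.23 (edgeR adjusted p = 0.000677) in KO and -1.85 ± 0.22 (edgeR adjusted p = 9.81e-06) in WT livers. Col5a1 had 7.09, 7.49, 7.64 and 8.86 CPM in fasted KO against 14.3, 12, 12.4 and 12.3 CPM in fed KO livers (log2 fold change -0.71 ± 0.11, edgeR adjusted p = 6.51e-05), and 6.85, 6.41, 5.54 and 6.82 CPM in fasted WT against 11, 7.92, 9.27 and 8.63 CPM in fed WT livers (log2 fold change -0.52 ± 0.12, edgeR adjusted p = 0.00183). The KO groups did not overlap, nor did the WT groups. The type I and type III chains fell in KO livers, with log2 fold changes of -1.28 ± 0.24 (edgeR adjusted p = 0.000418) for Col1a1, -0.54 ± 0.15 (edgeR adjusted p = 0.00715) for Col1a2 and -1.45 ± 0.30 (edgeR adjusted p = 0.00166) for Col3a1. In WT livers Col1a1 (-0.27 ± 0.26) and Col1a2 (-0.13 ± 0.15) did not pass, and the fall of Col3a1 (log2 fold change -0.83 ± 0.30, edgeR adjusted p = 0.048) is lost in 15 of 24 alternatives. The difference between the KO and WT fasting effects equals the difference of the genotype effects tested above, in which neither chain of type I collagen passed without the replicate block.

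Outside the fibrillar class, the log2 fold change of Col6a3 was -0.85 ± 0.10 (edgeR adjusted p = 3.72e-06) in KO and -0.78 ± 0.11 (edgeR adjusted p = 1.75e-05) in WT livers, and its fasted libraries were below its fed libraries in each genotype. That of Col4a1 was -0.72 ± 0.11 (edgeR adjusted p = 6.51e-05) in KO and -0.53 ± 0.11 (edgeR adjusted p = 0.00141) in WT livers. Nid2 had 6.09, 5.27, 5.26 and 4.27 CPM in fasted KO and 4.62, 5.33, 7.81 and 5.22 CPM in fasted WT livers, below every fed library of the same genotype. Its log2 fold changes were -0.89 ± 0.14 (edgeR adjusted p = 6.51e-05) in KO and -1.23 ± 0.14 (edgeR adjusted p = 1.8e-06) in WT livers. Hspg2 was lower as well, at -0.68 ± 0.12 (edgeR adjusted p = 0.00022) in KO and -0.60 ± 0.12 (edgeR adjusted p = 0.000897) in WT livers. Col18a1 stood at -0.22 ± 0.08 (edgeR adjusted p = 0.0382) in KO, a call lost in 6 of 24 alternatives, and -0.39 ± 0.08 (edgeR adjusted p = 0.00125) in WT, and Fn1 at -0.38 ± 0.07 (edgeR adjusted p = 0.000511) in KO and -0.41 ± 0.07 (edgeR adjusted p = 0.000342) in WT.

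Sparc had 53.5, 58.4, 44.4 and 49.6 CPM in fasted KO against 95.2, 76.2, 77.7 and 86.1 CPM in fed KO livers (log2 fold change -0.70 ± 0.10, edgeR adjusted p = 1.9e-05). In WT livers it had 51.9, 45.5, 42.5 and 41.3 CPM after the fast against 74.8, 64, 62.6 and 59.6 CPM in the fed state (log2 fold change -0.53 ± 0.10, edgeR adjusted p = 0.000416). Fasted and fed groups did not overlap in either genotype. Mmp14 ran the other way, with 36.9, 39.7, 39.6 and 40.4 CPM in fasted KO against 22.4, 28.7, 24 and 23.8 CPM in fed KO livers (log2 fold change 0.66 ± 0.09, edgeR adjusted p = 1.03e-05). In WT livers Mmp14 had 41.3, 35.9, 37.1 and 39.4 CPM after the fast against 19.6, 21.2, 25.7 and 20.7 CPM in the fed state (log2 fold change 0.82 ± 0.09, edgeR adjusted p = 9.84e-07). It was the only member called higher after the fast in KO livers. In WT livers Dcn (log2 fold change 0.28 ± 0.09, edgeR adjusted p = 0.0192) and Lama5 (log2 fold change 0.34 ± 0.13, edgeR adjusted p = 0.0419) were also called higher. The Lama5 call is lost in 13 of 24 alternatives, and the Dcn call without fasted WT replicate 1 or fed WT replicate 2.

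**Figure D4:**
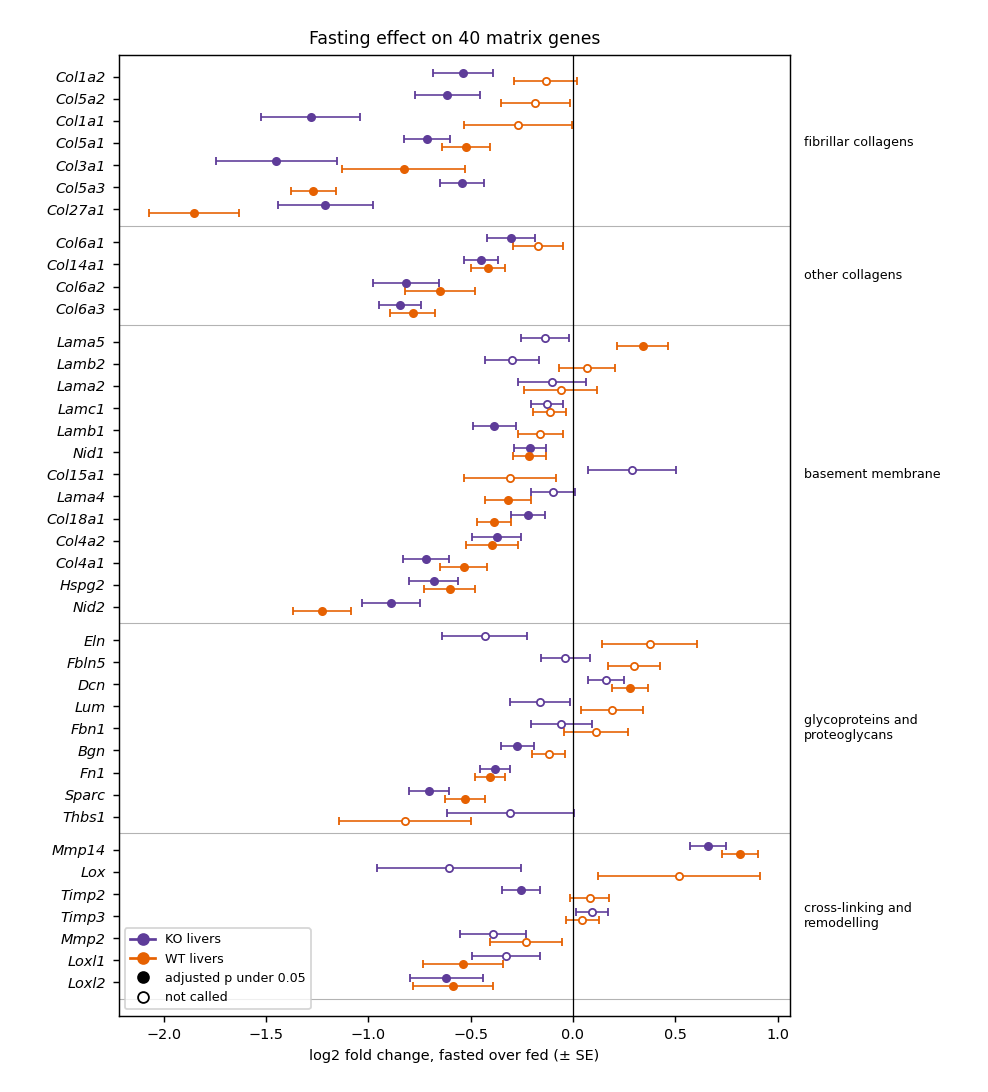
Log2 fold change of fasted over fed livers with its SE for the 40 tested matrix genes, in KO and in WT livers; filled points passed an adjusted p under 0.05. Mmp14 lies at 0.66 in KO and 0.82 in WT livers, and all 7 fibrillar collagens lie below 0 in both genotypes.

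Genes that act on or beside the matrix were counted in 4 further lists. Their counts are to be read against all genes tested, of which fed KO livers had 14% higher and 16.9% lower, and fasted KO livers had 13.8% higher and 14.5% lower. Of 23 tested genes of collagen processing (hydroxylases, chaperones and propeptide proteases) 8 were higher and 2 lower in fed KO against fed WT, and 4 higher and 2 lower in fasted KO against fasted WT. The lysyl hydroxylase Plod1 was higher in fasted KO livers by 0.48 ± 0.09 (edgeR adjusted p = 0.000444) and in fed KO livers by 0.37 ± 0.09 (edgeR adjusted p = 0.00347). Fkbp14, a prolyl isomerase of the endoplasmic reticulum, was lower in both states, with log2 fold changes of -0.42 ± 0.12 (edgeR adjusted p = 0.0116) fasted and -0.61 ± 0.12 (edgeR adjusted p = 0.00079) fed. The propeptide protease Adamts2 was higher in fed KO livers (log2 fold change 0.54 ± 0.13, edgeR adjusted p = 0.00398). Adamts14, which trims procollagen, was at 3.2 ± 0.588 CPM in fasted KO against 0.742 ± 0.198 CPM in fasted WT (SD, n = 4; log2 fold change 2.10 ± 0.24, edgeR adjusted p = 4.21e-06), and its genotype effect was larger in fasted than in fed livers (difference of log2 fold changes 1.31 ± 0.33, edgeR adjusted p = 0.0473). Fasting lowered 8 genes of this list and raised 4 in KO livers, and lowered 8 and raised 3 in WT livers, beside 20.3% lower and 21.1% higher in KO and 18.3% lower and 16.2% higher in WT livers among all genes tested. The collagen chaperone Serpinh1 led the falls, to 6.77 ± 0.926 CPM in fasted KO against 26.6 ± 2.43 CPM in fed KO (log2 fold change -1.98 ± 0.13, edgeR adjusted p = 1.89e-09), and to 6.13 ± 0.865 CPM in fasted WT against 20.7 ± 3.26 CPM in fed WT (log2 fold change -1.76 ± 0.13, edgeR adjusted p = 8.42e-09). The isomerase Ppib had log2 fold changes of -1.13 ± 0.10 (edgeR adjusted p = 5.99e-08) in KO and -1.09 ± 0.10 (edgeR adjusted p = 7.52e-08) in WT livers, while the collagen galactosyltransferase Colgalt1 rose, by 0.47 ± 0.08 (edgeR adjusted p = 8.94e-05) in KO and 0.66 ± 0.08 (edgeR adjusted p = 2.58e-06) in WT livers.

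In the TGF-beta pathway, whose ligands drive collagen transcription in stellate cells, 9 of 26 genes were higher and 2 lower in fed KO livers. In fasted KO livers 4 of the 26 were higher, near the 13.8% of all genes, and 1 was lower, beside 14.5%. Tgfbi, a TGF-beta-induced matrix protein, was higher in both states, by 0.51 ± 0.09 (edgeR adjusted p = 0.000373) fasted and 0.61 ± 0.09 (edgeR adjusted p = 6.31e-05) fed. The latent TGF-beta binding protein Ltbp4 was higher in fed KO livers (log2 fold change 0.46 ± 0.10, edgeR adjusted p = 0.00161). The activin subunit gene Inhba was at 10.1 ± 2.08 CPM in fasted KO against 4.2 ± 0.684 CPM in fasted WT (SD, n = 4; log2 fold change 1.26 ± 0.19, edgeR adjusted p = 7.89e-05), and its genotype effect was larger after the fast (difference of log2 fold changes 1.18 ± 0.26, edgeR adjusted p = 0.0284). Fasting raised 3 and lowered 3 genes of this list in KO livers, beside 21.1% and 20.3% of all genes. In WT livers it raised 4 and lowered 3, beside 16.2% and 18.3%.

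Of 21 matrix receptor genes, 5 were higher and 1 lower in fed KO livers, beside 14% and 16.9% of all genes, whereas fasted KO livers had 5 higher and 3 lower, beside 13.8% and 14.5%. The laminin-binding integrin chain Itga6 was at 22.5 ± 8.15 CPM in fasted KO against 3.23 ± 0.428 CPM in fasted WT, and at 19.1 ± 3.08 CPM in fed KO against 2.44 ± 0.154 CPM in fed WT (SD, n = 4). Its log2 fold changes of 2.80 ± 0.21 (edgeR adjusted p = 1.29e-07) fasted and 2.96 ± 0.22 (edgeR adjusted p = 6.29e-08) fed were larger than those of any matrix member. The collagen receptor kinase Ddr1 was higher in both states, by 0.96 ± 0.22 (edgeR adjusted p = 0.00302) fasted and 1.27 ± 0.22 (edgeR adjusted p = 0.00024) fed, as was Itgb5, by 0.47 ± 0.07 (edgeR adjusted p = 4.38e-05) fasted and 0.49 ± 0.07 (edgeR adjusted p = 2.75e-05) fed. The heparan sulfate proteoglycan Sdc4 was lower in fed KO livers (log2 fold change -0.61 ± 0.12, edgeR adjusted p = 0.000776). Of 22 other genes of matrix proteases and their inhibitors, 5 were higher and 4 lower in fed KO livers, and fasted KO livers had 3 in each direction; apart from the 5 higher, these counts are near the shares of all genes. Mmp11 was higher in fasted KO livers (log2 fold change 2.42 ± 0.32, edgeR adjusted p = 2.54e-05), and the collagen-degrading cathepsin Ctsk in fed KO livers (log2 fold change 1.48 ± 0.34, edgeR adjusted p = 0.00315). Mmp19 was lower, with log2 fold changes of -0.62 ± 0.11 (edgeR adjusted p = 0.000576) fasted and -0.66 ± 0.11 (edgeR adjusted p = 0.000312) fed, as was the metalloproteinase inhibitor Reck, at -0.73 ± 0.17 (edgeR adjusted p = 0.003) fasted and -0.87 ± 0.16 (edgeR adjusted p = 0.000436) fed. The collagenase gene Mmp13 was called higher in fasted KO livers (edgeR adjusted p = 0.00267) at few reads, 0.57 ± 0.27 CPM in KO and 0.0621 ± 0.0772 CPM in WT (SD, n = 4). Fasting lowered 5 of these 22 genes and raised 1 in KO livers, and lowered 4 of the 21 receptor genes and raised 4. In WT livers it lowered 6 proteases and 3 receptors, and raised 2 proteases and 4 receptors. Among all genes tested, fasting lowered 20.3% and raised 21.1% in KO livers, and lowered 18.3% and raised 16.2% in WT livers.

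Markers of hepatic stellate cells moved with genotype. Of 14 stellate cell markers 11 were higher and none lower in fed KO livers, and 9 were higher and none lower in fasted KO livers, beside 14% (fed) and 13.8% (fasted) of all genes called higher. Their summed level was 403 to 427 CPM in fasted KO against 308 to 331 CPM in fasted WT, and 424 to 460.5 CPM in fed KO against 299 to 353 CPM in fed WT, with no overlap in either state and no marker at 0. Rgs5 (log2 fold change 0.59 ± 0.08, edgeR adjusted p = 3.98e-05), Pdgfrb (log2 fold change 0.59 ± 0.09, edgeR adjusted p = 0.000124) and Hhip (log2 fold change 0.77 ± 0.13, edgeR adjusted p = 0.000246) had the smallest p in fed livers. In the fasting comparisons 3 of the 14 were lower and 2 higher in KO livers, beside 20.3% and 21.1% of all genes. In WT livers 2 were lower and 3 higher, beside 18.3% and 16.2%.

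Calls among myofibroblast and smooth muscle markers differed between feeding states. Of 8 markers 4 were higher in fed KO against fed WT, beside 14% of all genes tested. In fasted KO livers 2 were lower than in fasted WT, beside 14.5%, and 4 were lower than in fed KO, beside 20.3%. In fasted WT against fed WT 1 was higher (Actg2) and 1 lower (Tagln), beside 16.2% and 18.3% of all genes. Their sum was 32.3 to 34.8 CPM in fasted KO and 28.5 to 44 CPM in fasted WT, and 51.3 to 63.7 CPM in fed KO and 34 to 46.1 CPM in fed WT. Acta2, the actin of activated stellate cells and smooth muscle, was at 2.6 ± 0.3 CPM in fasted KO, 4.1 ± 1.14 CPM in fasted WT, 8.22 ± 2.72 CPM in fed KO and 5.13 ± 1.28 CPM in fed WT (SD, n = 4). The difference of genotype effects (fasted minus fed, log2) was negative for Acta2 (-1.33 ± 0.33, edgeR adjusted p = 0.045), Myl9 (-1.38 ± 0.30, edgeR adjusted p = 0.0244) and Actg2 (-3.06 ± 0.60, edgeR adjusted p = 0.0154). In that direction 0.633% of all genes tested were called. Acta2, Myl9, Actg2 and the type I collagen genes had their highest means in fed KO livers, and the part of the markers in the collagen values was not tested.

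Further cell types were checked in the same way. Their counts are to be read against all genes tested, of which fed KO livers had 14% higher and 16.9% lower. Fasted KO livers had 13.8% higher and 14.5% lower. Endothelial markers, from cells that also make basement membrane, had 1 of 14 higher in fed KO livers (Eng, which the TGF-beta list holds too) and none called in fasted livers, and their sums were 474 to 529 CPM in fasted KO against 475 to 507 CPM in fasted WT, and 529.6 to 576 CPM in fed KO against 504 to 552 CPM in fed WT. The endothelial sums overlapped between genotypes in both states. In the fasting comparisons 6 of the 14 endothelial markers were lower and 1 higher in KO livers, beside 20.3% and 21.1% of all genes. In WT livers 2 were lower and 1 higher, beside 18.3% and 16.2%. The part of endothelial cells in the type IV collagen values was not tested. Macrophage markers had 5 of 17 higher in fed KO livers, beside 14% of all genes, and 3 in fasted KO livers, near the 13.8% of all genes, and their sums overlapped, at 458 to 685 CPM in fasted KO against 402 to 617 CPM in fasted WT, and 588 to 684 CPM in fed KO against 428 to 680.4 CPM in fed WT. Markers of mesothelium and portal fibroblasts summed to 7.94 to 11.2 CPM in fasted KO against 7.68 to 10.1 CPM in fasted WT, and to 10.7 to 14.1 CPM in fed KO against 6.91 to 9.49 CPM in fed WT, where the fed groups did not overlap. Of 6 tested, 2 were higher in fed KO livers (Fbln2 and Entpd2) and 1 in fasted KO livers (Entpd2). Bile duct markers summed to 44 to 57.8 CPM in fasted KO against 48.8 to 62.6 CPM in fasted WT, and to 63 to 72.1 CPM in fed KO against 54.6 to 62.9 CPM in fed WT, with none of 7 tested called in fed livers and 1 lower in fasted KO livers. Of 10 hepatocyte markers 5 fell and 1 rose in fed KO livers, whereas in fasted KO livers 4 fell and 1 rose. Of 15 pancreatic markers none was called in fed livers and 5 were lower in fasted KO livers. Fasting in KO livers lowered 3 of 17 macrophage, 2 of 7 bile duct and 1 of 10 hepatocyte markers. It also lowered 2 of 6 mesothelial and portal fibroblast markers there, and raised 1 macrophage and 3 hepatocyte markers. In WT livers it lowered 1 macrophage and 2 hepatocyte markers. It raised 1 macrophage, 1 bile duct, 2 hepatocyte and 14 of 15 pancreatic markers there. The shares of all genes are those given beside the endothelial fasting counts. The part of these shifts in the matrix genes was not tested.

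By summed level, basement membrane genes without Col18a1 separated the genotypes in both states, at 226 to 274 CPM in fasted KO against 144 to 160.5 CPM in fasted WT, and 306 to 353 CPM in fed KO against 197 to 209 CPM in fed WT. Other collagens did so too, at 73.7 to 92.7 CPM in fasted KO against 63.8 to 69.5 CPM in fasted WT, and 107 to 129.7 CPM in fed KO against 83.1 to 102 CPM in fed WT. Glycoproteins and proteoglycans without Fn1 also did so, at 419.7 to 515 CPM in fasted KO against 338 to 406 CPM in fasted WT, and 478 to 546 CPM in fed KO against 339.6 to 399.5 CPM in fed WT. Fibrillar collagens overlapped between the genotypes and separated the feeding states, at 56.8 to 79.1 CPM in fasted KO and 63.5 to 84 CPM in fasted WT, all below the fed range given above. Within each genotype, the fasted sums of basement membrane genes and other collagens were below the fed sums as well. Cross-linking and remodelling genes, of which Mmp14 and Timp3 were the most abundant, stood at 94.7 to 99.6 CPM in fasted KO and 86.6 to 96.3 CPM in fasted WT, and at 79.4 to 91.7 CPM in fed KO and 68.6 to 76.6 CPM in fed WT. These sums follow their most abundant members and carry no test.

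**Figure D5:**
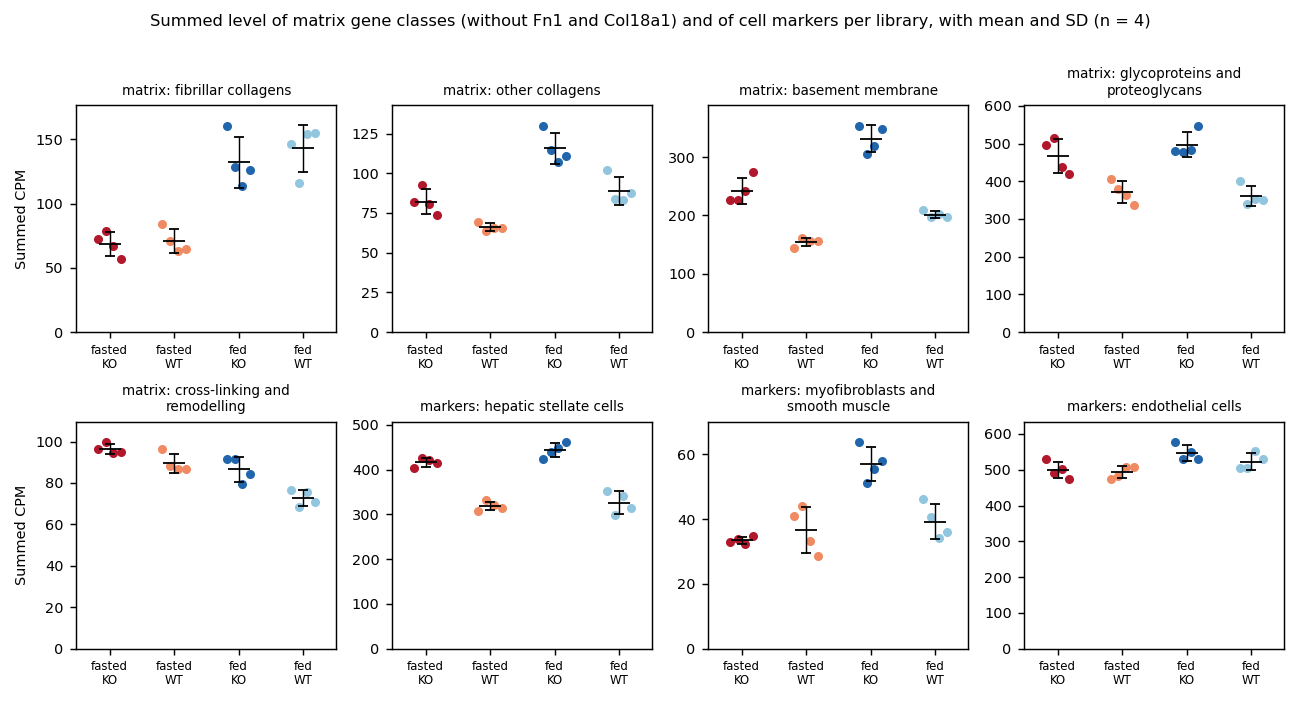
Summed CPM per library of the 5 matrix classes, without Fn1 and Col18a1, and of 3 marker lists (points), with mean and SD of the 4 libraries (bars). Basement membrane genes lie between 227 and 274 CPM in fasted KO against 144 and 161 CPM in fasted WT, and stellate cell markers between 424 and 461 CPM in fed KO against 299 and 353 CPM in fed WT.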

How the data were processed

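RNA-seq read counts per gene were deposited by the authors in 1 table with a column per library. They were made from reads trimmed with cutadapt 1.8, aligned with STAR 2.5.3a to GRCm38 and counted with HTSeq 0.9.1, per the submitters' processing notes. The labels name neither the strand setting nor the annotation release. Libraries came from 500 ng of RNA with a stranded poly(A) kit, per the labels. The 5 summary lines of the table were left out of library sizes.

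The members and all gene lists were chosen with earlier results of these data known. Genes passing edgeR's filterByExpr (13905 of 53714) were tested with edgeR 4.0.16 (TMM, robust quasi-likelihood F test, 1 coefficient per group, all 16 libraries; common biological coefficient of variation 0.138, 12 residual degrees of freedom), and p-values were adjusted by Benjamini-Hochberg over all of them at 0.05. Each SE is the absolute log2 fold change over √F. CPM are counts over the TMM-scaled library size. Levels per kb use the longest coding transcript in GENCODE M21, which holds 99.82% of the gene IDs. That length replaced merged exons after the levels had been seen. Values in every library are given for up to 3 members per class with the smallest p in the fed and 1 in the fasted genotype comparison, for members lower in any genotype comparison, for those called in the difference, and for up to 6 with the smallest p in each fasting comparison. Col1a1, Col3a1 and Eln were chosen after their values were seen. Of each further list up to 4 called genes per comparison are named. Chi-square values per gene between replicates ran from 6.79 to 91.7, so no 2 replicates agreed within sampling noise. Scripts were tested on simulated data. Alternatives used DESeq2 1.42.0, other scalings and filters, a replicate block and leaving out libraries. Promoter windows are those of RefSeq on GRCm38.p6.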

Additional observations from a re-analysis of the deposited data

Results flagged for a closer look

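In 14 of the 160 sets of 4 libraries examined (40 members in 4 groups), 1 library lay far from the other 3, by Dixon's 95% criterion for the gap to the nearest of the others over the group's range. Chance gives such a gap in about 1 in 20 sets. In the collagens, Col5a1 was high in fed KO replicate 1 at 14.28 CPM against 12.03 to 12.36 in the others, Col5a2 was low in fasted KO replicate 4 at 3.34 CPM against 5.509 to 5.834, and Col14a1 was high in fed KO replicate 1 at 88.43 CPM against 74.44 to 76.61 and in fed WT replicate 1 at 75.81 CPM against 61.16 to 63.54.

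In the laminins, Lama4 was low in fed KO replicate 2 at 5.861 CPM against 6.718 to 6.893, Lamb1 was low in fed KO replicate 1 at 13.95 CPM against 16.47 to 16.89, Lamb2 was low in fed WT replicate 2 at 4.957 CPM against 6.444 to 6.723, and Lamc1 was high in fed KO replicate 3 at 27.22 CPM against 21.74 to 22.39. Fn1 was high in fasted WT replicate 1 at 1765 CPM against 1560 to 1586 and in fed WT replicate 3 at 2188 CPM against 2129 to 2136. Fbn1 was low in fasted WT replicate 4 at 3.411 CPM against 4.956 to 5.274, and Thbs1 was high in fasted WT replicate 1 at 2.176 CPM against 1.518 to 1.602. Among the lysyl oxidase relatives, Loxl1 was low in fed KO replicate 3 at 1.689 CPM against 2.329 to 2.451, and Loxl2 was high in fed KO replicate 1 at 5.67 CPM against 4.213 to 4.27. Fed KO replicate 1 supplied 4 of these 14 values.

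The Col5a3 genotype effect differed between feeding states, by 0.7271 on the log2 scale (edgeR adjusted p = 0.024). The effect was -0.21 in fasted and -0.93 in fed livers.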

How the results depend on the processing

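The counts of members called were recomputed under the alternatives, as were the log2 fold changes of each member. Of 163 gene results under up to 24 alternatives, 3626 values kept their direction and their side of the threshold, 186 lost the call, 61 gained it and 36 changed sign, and none of the last was called in either fit. The 3626 include results called in neither fit. They also include fits that leave out a library of neither group compared. Such fits bear on a call only through filter, scaling, shared spread and p adjustment, so these totals do not measure how firm the calls are. An adjusted p under 0.01 calls 2 members lower in fed KO livers, and in fasted KO livers 8 higher and 1 lower. It calls 1 higher after the fast in WT livers, and 0 with a positive difference of genotype effects (fasted minus fed). Library totals alone call 2 lower in fed KO livers, and in fasted KO livers 28 higher and 1 lower. Without fasted WT replicates 2 and 4, 8 members are higher and 1 lower in fasted KO livers, and 0 have a positive difference of genotype effects. The count of 1 lower in fasted KO livers also stands with no filter on low counts, with no robust estimation and with the 8 fasted libraries alone. The cause was not tested.

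Replicate numbers recur in every group. Over the genes tested, deviations from the group means had correlations of -0.174 to 0.251 between same-numbered libraries of the groups compared. These values cannot tell whether such libraries share more than a number. With the replicate number as a block, 28 members are higher and 4 lower in fed KO livers. Fasted KO livers then have 16 higher and 1 lower, and 1 member (Col1a1) has a negative difference of genotype effects.

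With 1 library left out in turn, fed KO livers have 23 to 26 members higher and 3 to 5 lower, fasted KO livers 10 to 15 higher and 1 to 2 lower. After the fast, 1 to 2 are higher and 18 to 27 lower in KO livers, and 1 to 4 higher and 13 to 19 lower in WT livers. The count with a positive difference of genotype effects is 0 to 1.

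Signs changed for uncalled log2 fold changes. Library totals alone give 0.0169 for Col18a1, 0.2031 for Lama4 and 0.041 for Thbs1 in fed livers, 0.147 for Col18a1 and 0.0405 for Nid2 in fasted livers, and -0.0006 for Timp3 in WT fasting. No filter gives -0.0021 for Timp3 in fed livers. Without fasted WT replicates 2 and 4, fasted values are 0.0175 for Col18a1, -0.0022 for Eln, -0.0241 for Timp3 and -0.0017 for Mmp14, and Lama2 in WT fasting is 0.1222. With 1 library left out, fed values range from -0.0898 to 0.3675 for Col15a1, -0.0864 to 0.0304 for Lama4, -0.4197 to 0.0691 for Thbs1 and -0.0593 to 0.0534 for Timp3. Fasted values range from -0.0839 to 0.2977 for Col1a1, -0.1794 to 0.3125 for Col3a1, -0.0801 to 0.001 for Col18a1, -0.252 to 0.0453 for Nid2 and -0.0048 to 0.0632 for Mmp14. WT fasting gives -0.1745 to 0.0208 for Lama2, -0.0288 to 0.1575 for Lamb2 and -0.0041 to 0.0979 for Timp3, and KO fasting -0.1994 to 0.0187 for Lama2, -0.1527 to 0.0151 for Fbln5 and -0.1523 to 0.0046 for Fbn1.

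Lengths of merged exons, an alternative chosen after seeing the data, give a per-length ratio of Col1a1 to Col1a2 of 0.513, against 0.244 with transcripts, and of Col6a1 to Col6a2 of 4.23, against 2.52 with transcripts, and move no member by more than 6 places in the order of levels. At this depth Vcan and Timp1 had too few reads to test.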
